A study of Mus musculus with 19 samples.

Results

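The genes of the axon guidance families were described in mouse endometrium of estrous females and of mated females on day 3.5 pc. Members were all genes of the deposited counts whose symbol in the GENCODE annotation of GRCm38 begins with Epha, Ephb, Efna, Efnb, Sema, Plxna, Plxnb, Plxnc, Plxnd, Slit, Robo or Ntn and a number, together with Nrp1, Nrp2 and Unc5a to Unc5d. This gave 70 members of 49089 genes, of which 67 code for protein and 3 are antisense RNAs of the Plxna4 locus (Plxna4os1, Plxna4os2 and Plxna4os3). In all, 59 members had at least 3 CPM (counts scaled to library size) in at least 3 of the 19 libraries and were tested. Exons of 15 members overlap a gene on the opposite strand (0.62% to 27.3% of their exon bases), and reads of both genes cannot be told apart if counting ignored strand, which the sources used here do not state. The 15 are Efna3, Efna4, Epha1, Epha6, Epha10, Ephb1, Ephb4, Ntn5, Plxna1, Plxna4, Plxna4os3, Plxnb1, Sema4c, Unc5a and Unc5c. The 11 members not tested were Efna3, Epha5, Epha6, Epha10, Ntn5, Plxna4os1, Plxna4os3, Plxnb3, Robo3, Slit1 and Unc5d.

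Total RNA was sequenced from scraped endometrium of wild-type C57Bl/6 females, in pooled samples. CONT (3 libraries, numbered 1, 2 and 4) were unmated females at estrus. INT, SVX, SVX_VAS and VAS (4 libraries each) were females mated with BALB/c males, collected on day 3.5 pc, and the males of INT were intact. For the last 3 groups the library name and the sample title name different surgeries of the male: libraries named SVX are titled vasectomised, those named SVX_VAS seminal vesicle-deficient, and those named VAS both. These groups are therefore called by their library names, and no surgery is assigned to them. The paper gives collection late in the evening, on the day proestrus was detected, for the estrous females, and at noon for the mated females of INT. Hour of day therefore cannot be told apart from mating in INT against CONT. Totals ran from 12661266 to 31781270 counts on genes.

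Libraries VAS replicates 2 and 3 stood apart. They held 11753 and 11648 counts of Malat1, against 144532 to 235595 in each of the other 17 libraries, and Plxna4os2 and Plxna4os3 had no count in either. The calls of VAS against CONT are therefore given with and without them. The defining markers of stroma (Pdgfra, Vim, Hoxa10), endothelium (Cdh5, Emcn) and epithelium (Cdh1, Krt8) were measured in every group, and Sox10, the defining Schwann cell factor, was at 0.345 to 0.488 CPM on average in each. In bulk samples, fewer cells of a type and less RNA per cell cannot be told apart.

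Guidance genes are ligands and receptors that steer growing axons and also act in epithelia, blood vessels and stroma. Ephrins are held at the cell surface and bind Eph receptor tyrosine kinases, and both partners can signal. Semaphorins bind plexins, and the secreted class 3 semaphorins mostly do so together with the neuropilins, which are also co-receptors for VEGF. Slits bind Robo receptors, and netrins bind Dcc, neogenin and the Unc5 receptors.

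Members of the guidance families moved in both directions between estrus and day 3.5 pc. Of the 59 members tested, 24 were higher and 13 were lower in INT than in CONT (edgeR quasi-likelihood test, FDR of 0.05 or less and a change of at least 1.5-fold, with logFC the log2 fold change). Across all 17222 genes tested, 20.9% were higher and 12.7% were lower. The ligands contributed 13 higher and 9 lower of 31, and the receptors 11 higher and 4 lower of 27. No CONT library reached 3 CPM in 9 of the members tested, which passed the filter through mated libraries alone and 7 of these are among the 24. They are Efna2, Efnb3, Epha8, Ephb1, Sema4f, Sema5b and Unc5c, with Plxna4os2 and Sema3d not called. The median logFC was 0.36 over the members and -0.01 over all genes tested. The CPM of all 4 INT libraries lay above those of all 3 CONT libraries in 27 members and below them in 19, against 31% and 31.3% of all genes tested. In 9 of 12 subfamilies, called members of both directions stood side by side in the plot of fold changes.

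**Figure D1:**
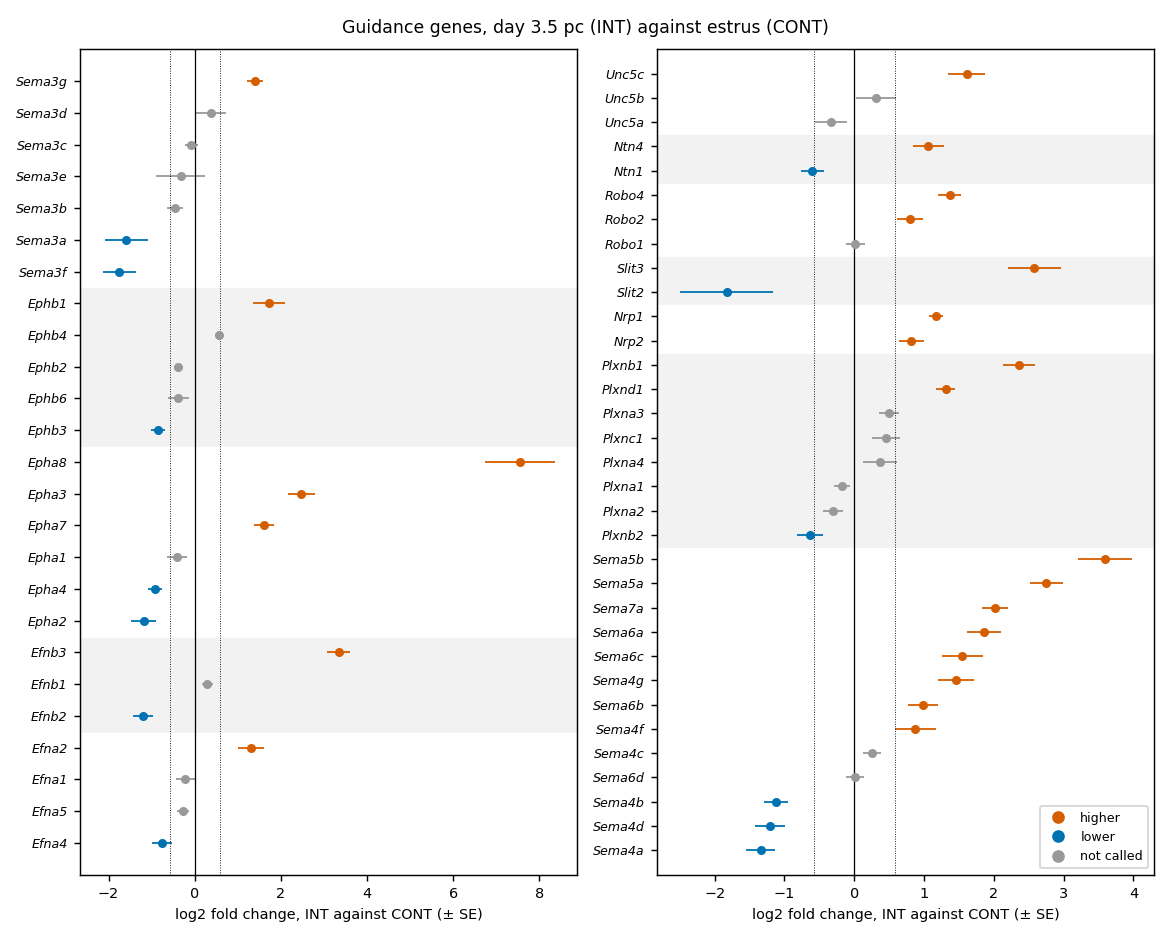
Log2 fold change of the 58 coding members tested, INT against CONT, with its standard error (horizontal axis, 2 panels with different ranges). Orange and blue points were called higher and lower, grey points were not called, and dotted lines mark the cutoff of 1.5-fold; 24 members are orange and 13 blue.

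The promoters of the opposite-moving Slit genes, and of the most abundant B ephrin and the most abundant semaphorin of INT, are printed because their transcripts carry the shift described below. The 250 bases before the RefSeq start (GRCm38.p6) are given 5′ to 3′ on the gene's strand, with capitals marking the GC box GGGCGG or its reverse complement. Slit2 lies at chr5:47982905-47983154 on the plus strand, Slit3 at chr11:35121206-35121455 on the plus strand, Efnb2 at chr8:8661243-8661492 on the minus strand and Sema5a at chr15:32244563-32244812 on the plus strand.
Slit2: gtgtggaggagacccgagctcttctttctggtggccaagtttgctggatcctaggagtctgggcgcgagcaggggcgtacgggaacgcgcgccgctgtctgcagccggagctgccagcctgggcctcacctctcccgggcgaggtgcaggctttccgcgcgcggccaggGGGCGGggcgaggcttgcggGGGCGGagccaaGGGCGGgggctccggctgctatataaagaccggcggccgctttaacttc
Slit3: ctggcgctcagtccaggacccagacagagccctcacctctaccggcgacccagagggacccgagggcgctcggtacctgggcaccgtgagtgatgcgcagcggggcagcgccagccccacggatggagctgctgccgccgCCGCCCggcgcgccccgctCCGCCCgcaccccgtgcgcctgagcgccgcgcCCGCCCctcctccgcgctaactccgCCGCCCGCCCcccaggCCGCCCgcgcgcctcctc
Efnb2: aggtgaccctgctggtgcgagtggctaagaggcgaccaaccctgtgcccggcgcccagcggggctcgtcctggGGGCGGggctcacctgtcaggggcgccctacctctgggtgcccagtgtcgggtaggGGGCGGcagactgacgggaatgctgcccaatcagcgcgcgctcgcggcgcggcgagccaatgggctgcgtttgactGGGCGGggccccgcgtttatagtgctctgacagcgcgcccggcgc
Sema5a: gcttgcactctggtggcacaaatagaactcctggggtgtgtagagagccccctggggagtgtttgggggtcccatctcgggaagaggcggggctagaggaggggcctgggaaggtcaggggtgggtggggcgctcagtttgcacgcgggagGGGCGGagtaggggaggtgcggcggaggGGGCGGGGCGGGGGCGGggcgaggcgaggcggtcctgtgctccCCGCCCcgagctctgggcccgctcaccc

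These windows held 3, 6, 3 and 5 GC boxes, overlapping matches counted, in the same order. RefSeq promoters were listed for 58 of the members (74 promoters), and 70.3% of these held a GC box on either strand, against 32.7% of all 32851 promoters of the same length. All promoters were taken without a filter by expression in endometrium, and no share among expressed genes was counted. The estrogen receptor core motif GGTCA (either strand) was found in 32.4% of member promoters and 35.2% of all promoters, in 9 of 27 promoters of higher members and in 9 of 18 of lower members. The 27 promoters belong to 22 genes and the 18 to 11 genes, so several promoters of the same gene are counted separately. The steroid receptor palindrome ACANNNTGT was found in 4.05% of member promoters and 5.84% of all, in 0 of 27 and 1 of 18. The progesterone receptor core motif AGAACA was found in 9.46% and 16.1%, and in 3 of 27 and 2 of 18. The share with a GC box was 63.0% (27 promoters) in members that were higher in INT and 72.2% (18 promoters) in those that were lower. These matches are descriptions of letters in the sequence.

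Among the ephrins, the class B ligands moved in opposite directions. Efnb2, an ephrin of arteries and epithelia, was at 255, 252 and 255 CPM in the CONT libraries and at 119, 139, 75 and 107 CPM in the INT libraries. It fell 2.31-fold (logFC -1.21, SE 0.23, FDR 5.01e-04), and no mated library reached the CONT range, the highest of the 16 being 169 CPM in VAS replicate 1. Efnb3 was at 1.84, 3.20 and 2.58 CPM in CONT and at 20.5, 22.8, 28.8 and 31.9 CPM in INT. It rose 10.1-fold (logFC 3.34, SE 0.27, FDR 1.12e-06), the lowest FDR of any member, and the groups did not overlap. Efnb1 did not pass the test, with a logFC of 0.29 (SE 0.13, FDR 0.0767).

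Per kb of exon, Efnb2 made up 43.6% ± 1.3 (SD, n = 3) of the level of all ephrins at estrus and 24.9% ± 5.2 (SD, n = 4) in INT. The share of Efnb3 went from 0.935% ± 0.229 (SD, n = 3) to 12.8% ± 3.2 (SD, n = 4). The ephrins as a whole were at 84.9 ± 2.1 CPM per kb in CONT (SD, n = 3) and 64.2 ± 4.0 in INT (SD, n = 4). Of the class A ephrins, which are anchored by a lipid tail, Efna2 rose 2.48-fold from 1.86 ± 0.38 to 4.63 ± 0.79 CPM (SD, n = 3 and n = 4; edgeR FDR 0.00195). Efna4 fell 1.70-fold from 28.2 ± 1.6 to 16.6 ± 4.7 CPM (edgeR FDR 0.0107), with 10.5% of its exon bases overlapping a gene on the opposite strand. Efna3, which missed the filter, was at 2.08, 2.73 and 2.43 CPM in CONT and at 2.27, 1.32, 1.03 and 0.420 CPM in INT, where the groups overlapped. Efna1, at 12.2 CPM per kb in CONT and 10.5 in INT, did not pass the test (logFC -0.22, SE 0.23, FDR 0.463), nor did Efna5 (logFC -0.28, SE 0.13, FDR 0.102).

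Of the 11 Eph receptors tested, 4 were higher and 3 were lower in INT, beside 20.9% and 12.7% of all genes. Epha2 and Ephb3, receptors known from epithelia, and Epha4 fell. Epha2 was at 67.9, 51.8 and 51.5 CPM in CONT and at 28.7, 34.1, 21.1 and 16 CPM in INT, a 2.28-fold fall (logFC -1.19, SE 0.29, FDR 0.00273). Epha4 fell 1.89-fold and Ephb3 1.81-fold. In these 3 receptors every mated library lay below every CONT library. Epha1, the class A Eph receptor with the highest level per kb over all libraries, did not pass the test (logFC -0.41, SE 0.23, FDR 0.161).

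The receptors that rose started from low levels. Epha3 was at 2.26, 4.70 and 3.11 CPM in CONT and at 12.8, 16.9, 25.2 and 20.7 CPM in INT, a 5.57-fold rise (logFC 2.48, SE 0.32, FDR 1.97e-05). Epha7 rose 3.03-fold to 11.7 ± 2.6 CPM (SD, n = 4). Ephb1 rose 3.31-fold to 5.23 ± 2.0 CPM (SD, n = 4).

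Epha8 was almost without reads at estrus. It had 0, 1 and 0 counts in the CONT libraries and 24, 46, 133 and 83 counts in the INT libraries. The 16 mated libraries held 24 to 133 counts each. From the pooled counts, Epha8 was 272-fold higher in INT, with an exact 95% interval of 48.4 to 10800 that covers counting error only (edgeR FDR 5.25e-06). The interval for VAS was 46.3 to 10300, and 35.7 to 8090 without VAS replicates 2 and 3. Even so its level in INT was 0.961 CPM per kb, against 25.4 for Ephb4, the Eph receptor with the highest level. Ephb4, the venous partner of ephrin B2, was at 79.6 ± 2.3 CPM in CONT and 118 ± 13 in INT (SD, n = 3 and n = 4). Its logFC of 0.56 (SE 0.09, FDR 7.41e-05) lay under the fold cutoff. Epha6 and Unc5d, which were not tested, had 3 counts in all CONT libraries together and 66 and 35 counts in INT, ratios of 20.9 (exact 95% interval 6.85 to 104) and 11.1 (3.49 to 56.3).

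Of the 20 semaphorins, 9 were higher and 5 were lower in INT, beside 20.9% and 12.7% of all genes. The fall lay in 2 secreted class 3 ligands and 3 class 4 ligands. Sema3a, the collapsing ligand of neuropilin 1, was at 229, 194 and 221 CPM in CONT and at 105, 117, 36.0 and 27.6 CPM in INT. It fell 3.01-fold (logFC -1.59, SE 0.50, FDR 0.0159), and INT replicates 1 and 2 were above INT replicates 3 and 4. Sema3f, a ligand of neuropilin 2, was at 160, 152 and 162 CPM in CONT and at 69.4, 64.5, 24.8 and 28.7 CPM in INT. It fell 3.37-fold (logFC -1.75, SE 0.38, FDR 0.00138), with the same order of INT libraries into a higher and a lower pair. Sema4a, Sema4b and Sema4d, membrane ligands known from immune and epithelial cells, fell 2.53-, 2.17- and 2.31-fold (FDR 9.27e-05, 9.78e-05 and 2.20e-04). Sema4a was at 104, 109 and 109 CPM in CONT and at 58.9, 44.4, 33.0 and 33.3 CPM in INT, and no mated library reached the CONT range.

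The 9 that rose were Sema5a, Sema5b, Sema6a, Sema6b, Sema6c, Sema7a, Sema3g, Sema4f and Sema4g. Sema5a, a membrane semaphorin with thrombospondin repeats, was at 75.9, 96.4 and 87.4 CPM in CONT and at 443, 511, 751 and 630 CPM in INT. It rose 6.74-fold (logFC 2.75, SE 0.24, FDR 1.59e-06). Per kb it moved from the 23rd highest level of the members at estrus, 8.01, to the highest in INT, 54.0 ± 12.6 (SD, n = 4), which did not differ from that of Plxnb2, 53.5 ± 6.5, beyond the spread. Its paralogue Sema5b rose 12.0-fold (logFC 3.59, SE 0.39, FDR 5.35e-06), from 0.416, 0.646 and 0.682 CPM to 3.86, 6.11, 8.78 and 9.59 CPM. Sema7a, the lipid-anchored semaphorin that binds integrins and plexin C1, rose 4.04-fold from 10.9 ± 1.4 to 43.9 ± 6.9 CPM (SD, n = 3 and n = 4; edgeR FDR 1.81e-06). Sema6a, Sema6b and Sema6c rose 3.62-, 1.97- and 2.92-fold, while Sema6d did not pass the test (logFC 0.01, SE 0.13, FDR 0.971). Sema3g, a class 3 ligand known from arterial endothelium, rose 2.64-fold from 12.4 ± 2.1 to 32.8 ± 6.5 CPM (SD, n = 3 and n = 4; edgeR FDR 2.73e-05). Sema4f, at 1.37 ± 0.39 and 2.50 ± 0.74 CPM (SD, n = 3 and n = 4), rose 1.83-fold (edgeR FDR 0.0220). It passed the filter only through INT replicate 2 and VAS replicates 2 and 3, and the FDR was 0.117 without CONT replicate 2, 0.0564 without INT replicate 1 and 0.0637 without INT replicate 2. The call was also lost with only the groups compared, and the logFC ran from 0.65 to 1.04 over the 15 alternatives.

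The summed level of the semaphorins was 181 ± 4.3 CPM per kb in CONT (SD, n = 3) and 192 ± 3.6 in INT (SD, n = 4). Sema5a took 4.41% ± 0.43 of it at estrus (SD, n = 3) and 28.1% ± 6.1 in INT (SD, n = 4). Sema3f went from 16.8% ± 0.8 to 4.73% ± 2.43, and Sema3a from 8.54% ± 0.89 to 2.70% ± 1.77. Sema3c, which followed Sema3f among the class 3 semaphorins at estrus (29.5 against 30.4 CPM per kb) and exceeded it in INT (28.0 against 9.02), took 16.3% ± 1.7 and 14.6% ± 1.6 and did not pass the test (logFC -0.08, SE 0.15, FDR 0.722).

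**Figure D2:**
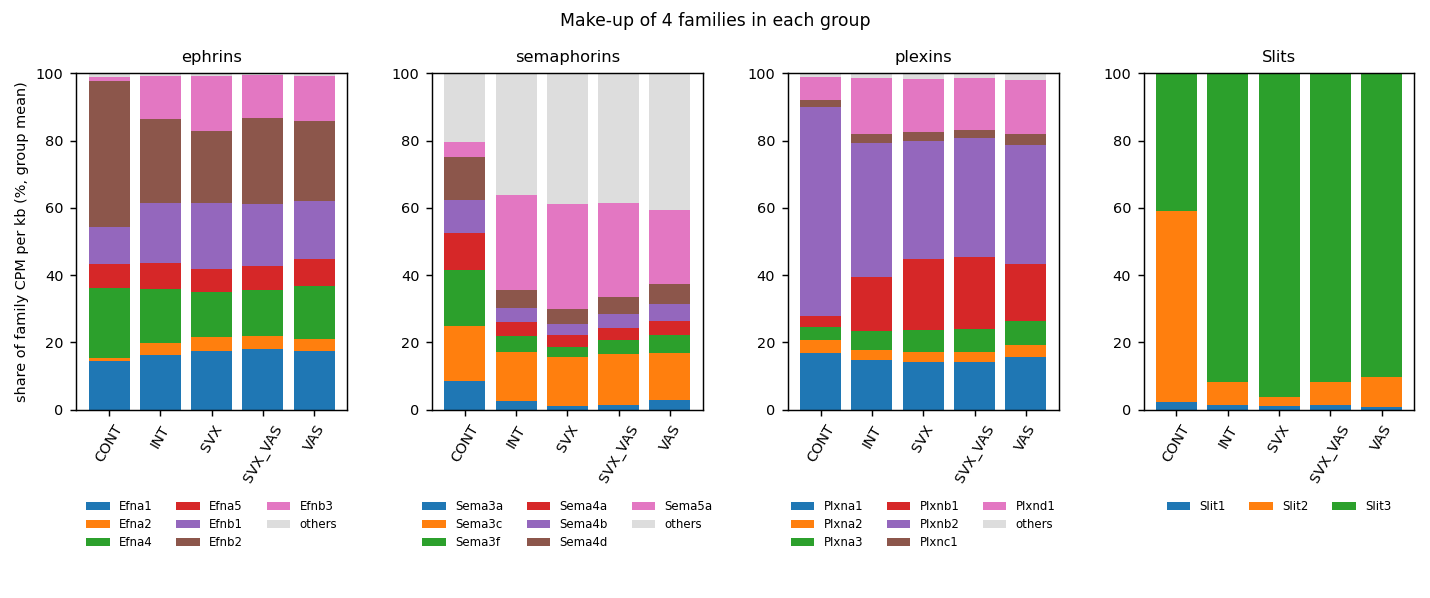
Share of each member in its family's summed level per kb of exon (percent, mean of the libraries of each group) for ephrins, semaphorins, plexins and Slits, with the less abundant members pooled in grey. Efnb3, Sema5a, Plxnb1 and Slit3 take larger shares, and Efnb2, Sema3f, Plxnb2 and Slit2 smaller ones, in each mated group than in CONT. The long deposited exon length of Slit2 (25433 bases) lowers its share in every group.

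Of the semaphorin receptors, 2 of 8 coding plexins tested were higher and 1 was lower, beside the same 20.9% and 12.7% of all genes, and both neuropilins were higher. Plxnb1, the receptor of Sema4d, was at 35.9, 29.3 and 58.1 CPM in CONT and at 165, 185, 226 and 263 CPM in INT. It rose 5.12-fold (logFC 2.36, SE 0.23, FDR 2.67e-06), with 2.68% of its exon bases overlapping a gene on the opposite strand. Plxnb2, the member with the highest level per kb at estrus (82.9), was at 633, 561 and 576 CPM in CONT and at 396, 439, 347 and 341 CPM in INT. It fell 1.55-fold (logFC -0.63, SE 0.19, FDR 0.0113), and its logFC fell short of the fold cutoff at -0.58 without CONT replicate 1 and also at -0.58 without INT replicate 4. Within the plexins, whose summed level was 133 ± 3.7 CPM per kb in CONT (SD, n = 3) and 135 ± 7.1 in INT (SD, n = 4), the share of Plxnb1 went from 3.20% ± 1.10 to 16.2% ± 2.9. That of Plxnb2 went from 62.2% ± 3.5 to 39.8% ± 5.6.

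Plxnd1, the endothelial plexin that binds Sema3e, rose 2.47-fold from 54.2, 74.9 and 67.2 CPM to 123, 148, 196 and 180 CPM (logFC 1.31, SE 0.14, FDR 5.25e-06). Nrp1 rose 2.25-fold from 62.9, 76.3 and 66.6 CPM to 159, 138, 161 and 161 CPM (logFC 1.17, SE 0.10, FDR 1.59e-06). Nrp2 rose 1.76-fold (logFC 0.82, SE 0.18, FDR 0.00124). The 3 receptors did not overlap between CONT and any mated library.

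The Slit ligands changed in opposite directions. Slit2 was at 49.8, 76.9 and 50.6 CPM in CONT and at 35.3, 18.0, 7.53 and 5.81 CPM in INT, a 3.56-fold fall (logFC -1.83, SE 0.67, FDR 0.0327). This call was lost when single libraries were left out, while the logFC ran from -2.5 to -1.55 over the 15 alternatives. The FDR was 0.053, 0.0983 and 0.0501 without CONT replicates 1, 2 and 4, and 0.056, 0.077 and 0.0882 without INT replicates 2, 3 and 4. Slit3 was at 7.25, 13.1 and 10.2 CPM in CONT and at 51.4, 40.3, 106 and 46.6 CPM in INT. It rose 5.96-fold (logFC 2.58, SE 0.38, FDR 5.51e-05), and every mated library lay above every CONT library. The ratio of Slit3 to Slit2 in CPM per kb of exon was 0.610, 0.715 and 0.848 in CONT and 6.12, 9.37, 59.0 and 33.6 in INT. The deposited exon length is 25433 bases for Slit2 and 6067 for Slit3, which raises this ratio over that of CPM in every library alike.

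Of their receptors, Robo4, which is known from endothelium, rose 2.58-fold from 15.6, 20.2 and 16.1 CPM to 34.4, 43.7, 51.9 and 49.1 CPM (logFC 1.37, SE 0.17, FDR 1.13e-05). Robo2 rose 1.74-fold (logFC 0.80, SE 0.19, FDR 0.00229), and CONT replicate 2, at 110 CPM, overlapped the lowest mated library, at 105. Robo1, the Robo with the highest level per kb, had a logFC of 0.02 (SE 0.14, FDR 0.943).

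The netrins also diverged. Ntn1, the classical secreted netrin, was at 145, 157 and 128 CPM in CONT and at 111, 82.6, 86.4 and 98.2 CPM in INT. It fell 1.52-fold (logFC -0.60, SE 0.16, FDR 0.00621), and its logFC of -0.53 without CONT replicate 2 and -0.54 without INT replicate 2 lay under the fold cutoff, as did that of -0.58 without VAS replicates 2 and 3, which enter the shared fit. Ntn4, a laminin-binding netrin of basement membranes, was at 7.73, 12.9 and 11.6 CPM in CONT and at 15.7, 22.3, 23.3 and 28.5 CPM in INT. It rose 2.09-fold (logFC 1.06, SE 0.22, FDR 8.33e-04). Ntn5, a further netrin that missed the filter, has no test and shares 23.4% of its exon bases with a gene on the opposite strand, had 27, 71 and 28 counts in CONT (1.60, 2.55 and 2.12 CPM) and 6, 11, 3 and 4 counts in INT (0.454, 0.693, 0.171 and 0.280 CPM). All 16 mated libraries, at 1.03 CPM or less, lay below CONT. Of the netrin receptors of the Unc5 family, Unc5c rose 3.05-fold from 2.73 ± 0.64 to 8.39 ± 0.28 CPM (SD, n = 3 and n = 4; edgeR FDR 1.70e-04). Unc5b, the member of this family with the highest level per kb, did not pass the test (logFC 0.31, SE 0.28, FDR 0.395), nor did Unc5a (logFC -0.33, SE 0.23, FDR 0.250).

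**Figure D3:**
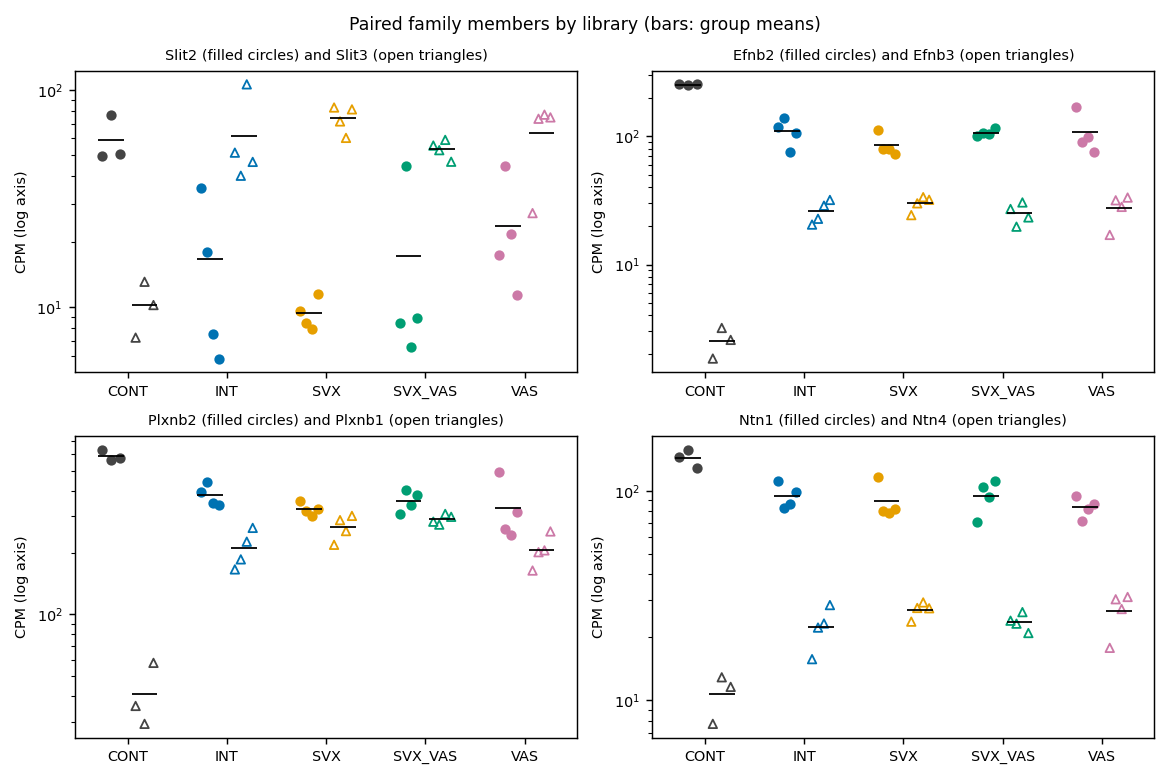
CPM (log axis) of 4 pairs of family members in each library, by group; filled circles show the member that fell in INT, open triangles the one that rose, bars the group means, and levels are not comparable between genes. Slit3 lies between 40.3 and 106 CPM in INT and between 7.25 and 13.1 CPM in CONT, while Slit2 spreads from 5.81 to 35.3 CPM in INT.

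A list of 73 partner genes outside the families (further receptors, adaptors and cytoskeletal effectors of the guidance pathways) gave 22 higher and 12 lower of 70 tested, beside the 20.9% and 12.7% of all genes. Of the 22, 7 (Crmp1, Dcc, Dpysl4, Draxin, Lrrc4c, Nrcam and Ntng1) had no CONT library at 3 CPM and passed the filter through mated libraries alone. Among the receptors and ligands of the netrin pathway, Dcc, the netrin receptor, had 5, 2 and 1 counts in CONT and 23, 71, 43 and 40 counts in INT. From the pooled counts it was 21.0-fold higher (exact 95% interval 10.4 to 49.4, counting error only; edgeR FDR 1.21e-05). Neo1, which encodes neogenin, had a logFC of 0.90 (SE 0.13, FDR 4.16e-05). The netrin G ligands Ntng1 and Ntng2 rose with logFC of 2.24 and 1.94, and Lrrc4c, the partner of netrin G1, with 2.72. Dscam, a further netrin receptor, fell (logFC -1.51, SE 0.60, FDR 0.0477). Of the collapsin response mediators that act below semaphorins, Crmp1, Dpysl2, Dpysl3 and Dpysl4 rose with logFC of 1.26, 0.94, 1.25 and 2.71. Met, the hepatocyte growth factor receptor that associates with B plexins, fell (logFC -1.51, SE 0.39, FDR 0.00456), and so did Ngef, the exchange factor below Epha4 (logFC -1.40, SE 0.17, FDR 1.36e-05).

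Markers of several cell types moved with these comparisons. All 8 endothelial markers listed were higher in INT than in CONT (median logFC 1.94), and their summed level was 198 to 282 CPM in CONT and 719 to 1070 in INT. Pericyte markers were higher in 5 of 6 (349 to 449 CPM, against 909 to 1290), and stromal markers in 5 of 8 (4690 to 5020 CPM, against 5100 to 7380). Luminal epithelial markers were lower in 4 of 8 (median logFC -1.41), with a summed level of 3730 to 5040 CPM in CONT and 852 to 2610 in INT. Of the 8 Schwann cell and nerve markers only 2 passed the filter, and 1 of these was lower (median logFC -0.57). The summed level of this list was 88.8 to 90.9 CPM in CONT, mostly of Mbp, and 24.9 to 47.6 in INT. T and NK cell markers were higher in 6 of 6 tested (median logFC 1.96), macrophage markers higher in 4 and lower in 1 of 7, lymphatic endothelial markers higher in 2 of 4, and smooth muscle markers in 1 of 7. Gland markers were higher in 3 and lower in 1 of 6, mesothelial markers higher in 1 of 5, progesterone response genes higher in 7 of 8 (median logFC 4.16), and proliferation genes were called in 0 of 8. Their part in the changes of the guidance genes was not tested.

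The estrogen response list (Ltf, Muc1, C3, Lcn2, Clca3b, Wfdc18, Sprr2f and Sprr2e, genes that estrogen induces in uterine epithelium) differed between libraries of the same mated group. It gave 0 genes higher and 1 lower (Muc1) of 6 tested in INT. Its level is given beside that of Sema5a and of some falling members only (Sema3a, Sema3f, Slit2 and Efnb2). Its median log2 CPM was 8.99 to 9.08 in CONT. It was 8.20, 7.28, 2.76 and 2.61 in INT replicates 1 to 4, where Sema3a was at 105, 117, 36.0 and 27.6 CPM. Both the list and Sema3a were higher in INT replicates 1 and 2 than in 3 and 4. In SVX it was 5.02, 1.72, 1.82 and 1.78, with Sema3a at 49.0, 27.2, 26.7 and 28.4 CPM. In SVX_VAS it was 1.97, 8.31, 1.36 and 6.10, with Sema3a at 25.6, 54.6, 24.7 and 40.8 CPM. In VAS it was 7.03, 5.98, 4.83 and 1.69, with Sema3a at 134, 65.2, 61.7 and 28.7 CPM. In SVX, SVX_VAS and VAS, but not in INT, the library with the highest list median had the highest Sema3a. Sema3f was at 25.3, 58.9, 29.9 and 48.8 CPM in SVX_VAS and at 73.5, 60.6, 46.5 and 27.2 CPM in VAS. Efnb2 was at 102, 107, 105 and 116 CPM in SVX_VAS and at 169, 89.8, 99.5 and 76.0 CPM in VAS. Slit2 was at 44.5 CPM in SVX_VAS replicate 2 and at 6.59 to 8.90 CPM in the other 3 libraries of that group, but in VAS it was highest in replicate 2, at 44.5 CPM, against 17.3, 21.8 and 11.4 CPM in replicates 1, 3 and 4. Sema5a was lowest of its group in SVX_VAS replicate 2, at 472 CPM, and in INT replicate 1, at 443 CPM, while in VAS it was at 416, 346, 342 and 648 CPM. The median log2 CPM of the luminal epithelial list was 8.22, 7.99, 6.83 and 7.17 in INT replicates 1 to 4, also higher in 1 and 2. In SVX the luminal epithelial median was 7.08, 7.14, 7.01 and 7.0, highest in another replicate than the estrogen list. In SVX_VAS it was 7.13, 8.08, 7.09 and 7.49, and in VAS 8.22, 6.23, 5.95 and 7.14, highest in the same replicates as the estrogen list. The parts of the estrogen response and of epithelial content in these results were not tested.

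**Figure D4:**
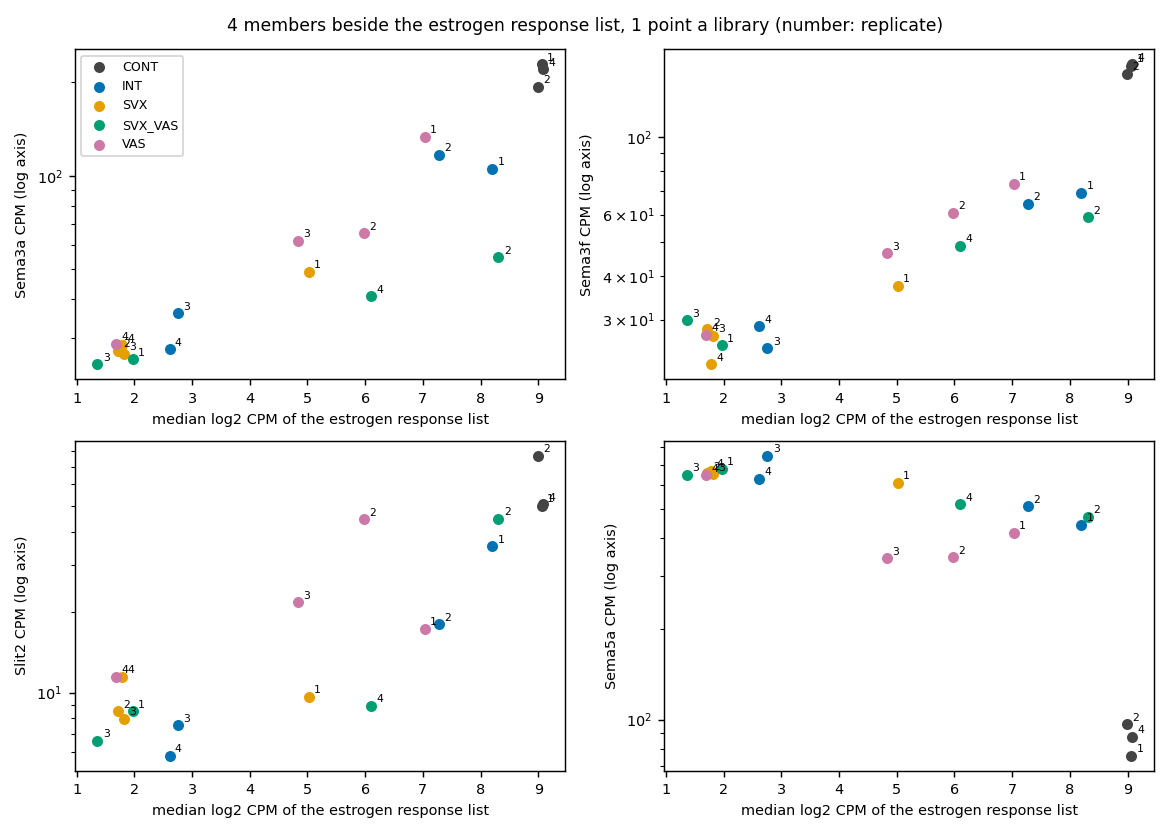
CPM of Sema3a, Sema3f, Slit2 and Sema5a (log axes) against the median log2 CPM of the estrogen response list, with 1 point a library, coloured by group and numbered by replicate. CONT libraries lie at list medians of 8.99 to 9.08, and mated libraries spread from 1.36 to 8.31.

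The other 3 mated groups, compared with the same 3 CONT libraries, gave similar counts. SVX had 25 members higher and 13 lower (23.1% and 18.5% of all genes), SVX_VAS 25 and 14 (22.2% and 16.5%) and VAS 26 and 12 (23.3% and 17.3%). Without VAS replicates 2 and 3, VAS had 24 higher and 9 lower (23% and 13.2%), with Epha2, Plxnb2 and Sema3a no longer called lower (logFC -0.84, -0.52 and -1.37, FDR 0.0711, 0.0198 and 0.0943). Plxna3 and Plxnc1 were no longer called higher (logFC 0.50 and 0.47, FDR 0.00823 and 0.0855). Because the comparisons share their controls, they are given side by side. In all 4, 23 members were higher and 12 were lower (18.9% and 10.7% of all genes). Another 18 were called in none, for which no share of all genes was counted. Among the 23 are Efna2, Efnb3, Epha8, Ephb1, Sema5b and Unc5c, which passed the filter through mated libraries alone. Without VAS replicates 2 and 3, 23 were higher and 8 were lower in all 4 (21.3% and 10.9% of all genes), Epha2, Plxnb2 and Sema3a losing the call in VAS and Ntn1 in INT and SVX_VAS. The CPM of all 16 mated libraries lay above CONT in 24 members and below it in 14, against 22.4% and 23.1% of all genes tested. For the 14 mated libraries other than VAS replicates 2 and 3, the counts were 24 and 16, against 26.4% and 24.8%.

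The logFC of Sema5b was 3.59, 3.52, 3.60 and 3.79 in INT, SVX, SVX_VAS and VAS, that of Efnb3 was 3.34, 3.55, 3.30 and 3.43, and that of Slit3 was 2.58, 2.85, 2.38 and 2.62. Plxnb1 had 2.36, 2.69, 2.83 and 2.33, and Unc5c 1.61, 1.05, 1.32 and 2.10. Without VAS replicates 2 and 3, the values of these 5 members in VAS were 3.40, 3.31, 2.33, 2.37 and 1.55. Among the falls, Efnb2 had -1.21, -1.56, -1.24 and -1.23, and Sema4a -1.34, -1.52, -1.45 and -1.38, with -1.02 and -1.53 in VAS without the same libraries. Sema3a had -1.59, -2.71, -2.56 and -1.57, Sema3f had -1.75, -2.46, -1.96 and -1.60, and Slit2 had -1.83, -2.65, -1.78 and -1.31, the last not called (FDR 0.101). Without VAS replicates 2 and 3, the values of VAS were -1.37, -1.62 and -2.01, of which that of Sema3f alone was called (FDR 0.0157). The other 5 members called in only some of the 4 comparisons were Ephb4, Plxna3, Plxnc1, Sema4f and Unc5a.

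**Figure D5:**
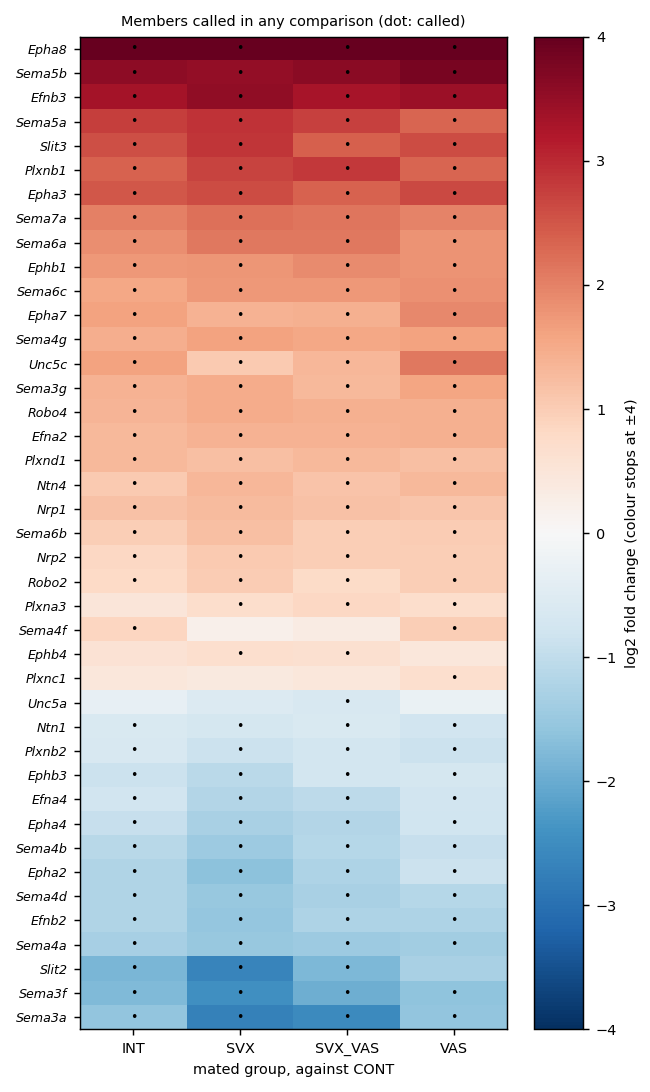
Log2 fold change against CONT of the members called in at least 1 comparison (rows) in the 4 mated groups (columns), ordered by their mean, with colours that stop at 4 in size and a dot where the member was called. The top 23 rows, from Epha8 to Robo2, carry a dot in every column.

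Between the mated groups no member was called by the main test. Against INT, 0 members were called in SVX, SVX_VAS or VAS by edgeR (0% of all genes), and at an unadjusted p under 0.05 there were 5, 2 and 0 members and 749, 339 and 1831 genes. DESeq2 called 0 members in each, and limma-voom called 0, 0 and 1, the 1 being Plxna4os2, which had no count in VAS replicates 2 and 3. The 5 members of SVX were Efna5, Epha4, Sema3a, Sema4f and Unc5c, all lower than in INT, and the 2 of SVX_VAS were Plxna3 and Plxnb1, both higher. Sema3a had a logFC of -1.12 (SE 0.48) in SVX, -0.97 (SE 0.47) in SVX_VAS and 0.02 (SE 0.47) in VAS (edgeR FDR 0.9997, 1 and 0.982).

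In the test of any difference among the 4 mated groups, 0 members were called by edgeR (0% of all genes), 0 by DESeq2 and 2 by limma-voom, Unc5c and Plxna4os2. The members with the lowest p were Unc5c, Epha4, Sema4f, Efna5, Plxnb1 and Sema3a (edgeR FDR 0.635 each). Unc5c was at 8.55, 8.07, 8.27 and 8.68 CPM in INT, at 7.79, 5.11, 5.41 and 4.51 CPM in SVX, at 6.47, 6.54, 6.92 and 7.50 CPM in SVX_VAS and at 8.46, 16.6, 14.5 and 7.41 CPM in VAS. The high values were those of VAS replicates 2 and 3, and without them its FDR was 0.953. Unc5c was called without VAS replicate 4 (edgeR FDR 0.0460).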

How the data were processed

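Libraries of endometrial total RNA (TruSeq Stranded) were read as pairs on a HiSeq2000. The raw gene counts deposited by the authors come from AdapterRemoval, STAR on GRCm38 (mm10) and featureCounts, with no normalization. The strand setting is not given in the sources used here. From these counts, the 17222 genes reaching 3 CPM (before TMM) in 3 or more of the 19 libraries were kept, printed CPM were scaled with TMM factors, and genes were fitted with group as the only term in edgeR 4.0.16 (glmQLFit, glmQLFTest, R 4.3.3), with Benjamini-Hochberg FDR over all genes tested. SE is the logFC divided by the square root of the F statistic. Level per kb is CPM divided by the deposited exon length, which joins all transcripts and is long for Slit2 (25433 bases). Counting intervals are exact (95%). The fit was tested on simulated data. A count of 0 allows up to 3 counts, 0.108 to 0.236 CPM by library. Replicates are pooled samples, the number of animals per pool is not given, and p-values measure the spread between pools.

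The members and lists were chosen with earlier results of these data known. Values are given for the largest rise and fall and the highest level per kb in each of 12 subfamilies, and for the 6 lowest FDR among mated groups; other members and partners were named after their values were seen. Alternatives were DESeq2 size factors, DESeq2 1.42.0, limma-voom (limma 3.58.1), other filters, FDR alone, only the groups compared, a replicate block and each library left out; leaving out VAS replicates 2 and 3 was added after the data were seen. Figures were drawn with Python 3.11.15. RefSeq promoters (GRCm38.p6) were searched by letters. Reads were not analysed here.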

Additional observations from a re-analysis of the deposited data

Results flagged for a closer look

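In 15 of 128 groups of 4 libraries, 1 library lay far from the other 3 by Dixon's ratio at the 95% level, where chance gives about 6.4. SVX_VAS replicate 2 held 5 of these values: Efna1 at 32.8 CPM (others 16 to 17.6), Efna4 at 19.5 (11.3 to 12.7), Epha1 at 65.1 (29.4 to 31.6), Sema3c at 259 (185 to 197) and Slit2 at 44.5 (6.59 to 8.90). SVX replicate 1 held another 5, with Nrp1 at 145 CPM (others 168 to 173), Ntn1 at 116 (78.4 to 81.9), Sema3a at 49.0 (26.7 to 28.4), Sema3c at 219 (189 to 192) and Unc5b at 13.2 (6.73 to 7.31). These are the libraries with the highest estrogen response list median of their groups, and its part was not tested. INT replicate 3 was apart for Efna2 at 5.82 CPM (others 4.13 to 4.35) and Slit3 at 106 (40.3 to 51.4), and INT replicate 2 for Nrp1 at 138 (159 to 161). VAS replicate 1 was low for Slit3 at 27.1 CPM (others 73.6 to 76.9), and SVX replicate 4 was high for Sema4a at 44.3 (34.1 to 35.7).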

How the results depend on the processing

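Under the alternatives run, 231 of 235 counts of members or partners stayed within 1.5 times the main count. The exceptions were 1 member called in VAS against INT by limma-voom, 2 members called among the mated groups by limma-voom and 0 to 1 when each library was left out (1 without VAS replicate 4), and 22 partners lower in INT with the FDR alone, against 12. Dropping the fold cutoff widens the calls for all genes alike, and their share with the FDR alone is not given here. Of 480 alternative values of named genes, 451 kept their direction and call, 17 lost the call (Ntn1, Plxnb2, Sema4f and Slit2) and 4 gained it (Ephb4). The other 8 changed sign without being called. They were the logFC of Robo1 (0.02), which was -0.03 with a filter of 1 CPM, -0.01 with no filter, -0.01 by limma-voom and -0.06 to 0.09 with each library left out, and of Sema3c (-0.08), which was -0.13 to 0.02 with each library left out. Replicate numbers did not pair the libraries (correlations of INT and CONT deviations 0.125, -0.3 and 0.165); with a replicate block, 24 members were higher and 11 lower in INT, Ntn1 (-0.58) and Plxnb2 (-0.57) falling under the fold cutoff. Depth limits the folds of the 11 members that missed the filter.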
